A study of Mus musculus with 2 samples.

Results

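The Ly49 receptors are a family of C-type lectin-like proteins encoded by the Klra genes. Their levels and per-cell combinations were read from droplet single-cell libraries of CD45+ cells sorted with a 7AAD viability stain from subcutaneous tumours of mice. The 10 members, Klra1, Klra2, Klra3, Klra4, Klra5, Klra6, Klra7, Klra8, Klra9 and Klra17, were taken by symbol from the 27998 gene rows of each library, and all 10 were present. There was 1 library from CD94-KO mice and 1 from WT mice, each drawn from 5 tumour-bearing animals, with both strains labelled C57BL/6J and both aged 6-8 weeks. CD94 is the product of Klrd1, the shared partner of the NKG2 receptors. The labels give neither the tumour line nor how the knockout was made. With 1 library per genotype no difference between genotypes could be tested. Every interval below is an exact 95% interval that covers counting error only, not the spread between mice.

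Ly49 proteins sit as dimers on natural killer (NK) cells and on some T cells, where most members bind classical MHC class I molecules. Inhibitory members carry a tyrosine motif in the cytoplasmic tail that recruits the phosphatase encoded by Ptpn6, whereas activating members lack it and signal through the adaptor DAP12, the product of Tyrobp. Each NK cell switches on its own subset of the family, so that neighbouring cells carry different combinations. In C57BL/6 mice the activating members are Klra4 (Ly49D) and Klra8 (Ly49H), the second of which recognises a cytomegalovirus protein. The inhibitory members of lymphocytes are Klra1 (Ly49A), Klra3 (Ly49C), Klra5 (Ly49E), Klra6 (Ly49F), Klra7 (Ly49G) and Klra9 (Ly49I). Klra2 (Ly49B) is known from myeloid cells and Klra17 (Ly49Q) from plasmacytoid dendritic cells (pDC), and both have inhibitory tails.

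All 10 genes lie on the minus strand of chromosome 6 in one cluster (GENCODE M21, GRCm38). In rising coordinates the order is Klra17 (129831154 to 129876672), Klra5, Klra6, Klra4 (130043731 to 130067271), Klra8 (130115226 to 130129898), Klra9, Klra7, Klra3, Klra1 (130363917 to 130386874) and, 832348 bases beyond Klra1, Klra2 (131219223 to 131247362). The 2 members whose highest gate lay outside the lymphocytes, Klra17 and Klra2, are thus the outermost genes at either end. Klra4, which was also found in collagen-rich cells outside every gate, lies between them. The 250 bases upstream of the RefSeq gene start (GRCm38.p6, minus strand, 5′ to 3′) are shown for 5 members whose cell patterns differ most in what follows. Capitals mark GAGGAA or its reverse complement TTCCTC, which is the GGAA core recognised by ETS-family factors with flanking bases. GGAA without this flank is left in lower case and also occurs in the Klra1 window.
Klra1 (chr6:130386875-130387124): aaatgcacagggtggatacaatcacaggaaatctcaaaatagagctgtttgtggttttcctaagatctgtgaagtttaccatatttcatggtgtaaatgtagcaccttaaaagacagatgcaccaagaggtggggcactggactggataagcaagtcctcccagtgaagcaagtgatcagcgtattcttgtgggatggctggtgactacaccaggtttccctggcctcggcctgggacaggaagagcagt
Klra4 (chr6:130067272-130067521): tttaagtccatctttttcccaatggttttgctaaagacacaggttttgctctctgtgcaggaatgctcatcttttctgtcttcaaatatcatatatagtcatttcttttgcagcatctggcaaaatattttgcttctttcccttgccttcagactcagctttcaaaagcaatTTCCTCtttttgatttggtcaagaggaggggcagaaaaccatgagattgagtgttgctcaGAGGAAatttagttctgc
Klra8 (chr6:130129899-130130148): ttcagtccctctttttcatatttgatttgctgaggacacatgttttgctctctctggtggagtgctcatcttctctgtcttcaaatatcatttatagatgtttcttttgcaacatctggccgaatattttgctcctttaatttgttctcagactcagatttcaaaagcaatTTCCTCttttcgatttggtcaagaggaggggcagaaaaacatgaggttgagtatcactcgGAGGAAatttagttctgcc
Klra2 (chr6:131247363-131247612): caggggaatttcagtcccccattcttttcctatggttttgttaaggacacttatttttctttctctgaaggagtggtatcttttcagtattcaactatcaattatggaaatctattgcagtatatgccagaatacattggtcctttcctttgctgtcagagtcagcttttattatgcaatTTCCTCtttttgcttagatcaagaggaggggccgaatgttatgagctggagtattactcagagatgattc
Klra17 (chr6:129876673-129876922): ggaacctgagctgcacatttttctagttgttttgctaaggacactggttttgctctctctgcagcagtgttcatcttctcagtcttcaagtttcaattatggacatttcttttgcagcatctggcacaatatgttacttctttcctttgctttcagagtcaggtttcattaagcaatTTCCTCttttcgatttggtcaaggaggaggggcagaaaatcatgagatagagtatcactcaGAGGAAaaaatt

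The promoter table held all 10 members. GAGGAA on either strand occurred in the upstream window of 9 of 10 members, the exception being Klra1, and in 23.3% of all 32851 windows of the same length. The 11-base run TTTCCTCTTTT, which contains TTCCTC, was shared by 8 members (all but Klra1 and Klra5) and was found in 0.128% of all windows. Klra2 and Klra17 carried this run like the NK-cell members, so these letters did not separate the members by cell type. Klra1 stood apart over the whole window, with 48.0% to 54.8% identity to the other 9 members after alignment. Klra4 and Klra8, the activating pair, were 84.8% identical there, and Klra3 and Klra9 were 89.6% identical. A match of letters is a description and not a bound site.

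After filtering, 4574 CD94-KO and 4388 WT cells remained, with a median of 7799 UMIs per cell in CD94-KO against 4768.5 in WT. Cells were gated on raw UMIs of marker genes. NK-gated cells (at least 2 UMIs of Ncr1 and Klrb1c together and at most 1 UMI of the CD3 genes; 334 CD94-KO and 251 WT cells) may include other innate lymphoid cells with these markers, and T-gated cells (at least 2 CD3 UMIs; 392 CD94-KO and 426 WT cells) were gated on RNA alone. Check markers that no gate used were highest in their own gate in both libraries, except Chil3, which was higher in neutrophil-gated than in monocyte-gated CD94-KO cells. Median depth was 6603.5 UMIs in CD94-KO against 8122 in WT NK-gated cells, but 9017.5 in CD94-KO against 813.5 in WT macrophage-gated cells. Levels are therefore given as CPM, a gene's UMIs scaled to the total UMIs of its gate, and shares of cells also after every cell was thinned to 1000 UMIs. Of the kept barcodes, 4 occurred in both libraries. Klrd1 read 333 CPM in CD94-KO against 678 CPM in WT NK-gated cells, a ratio of 0.49 (0.45 to 0.53). A 3′ count outside the deleted stretch cannot check the knockout, and which stretch was deleted is not given in the sources used here.

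The family showed 3 distributions. Klra3, Klra4, Klra7, Klra8 and Klra9 were highest in NK-gated cells in both libraries, with T-gated cells well below them. Klra1, Klra5 and Klra6 had a higher CPM in T-gated than in NK-gated cells in both libraries, although the intervals overlapped for Klra1 in WT and for Klra5 in CD94-KO. Klra2 was highest in monocyte-gated cells and Klra17 in pDC-gated cells. Klra4 had a further level in collagen-rich cells outside every gate, described last. The 1 other row of the Klra genes had 9 UMIs in all kept CD94-KO cells and 2 in WT.

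**Figure D1:**
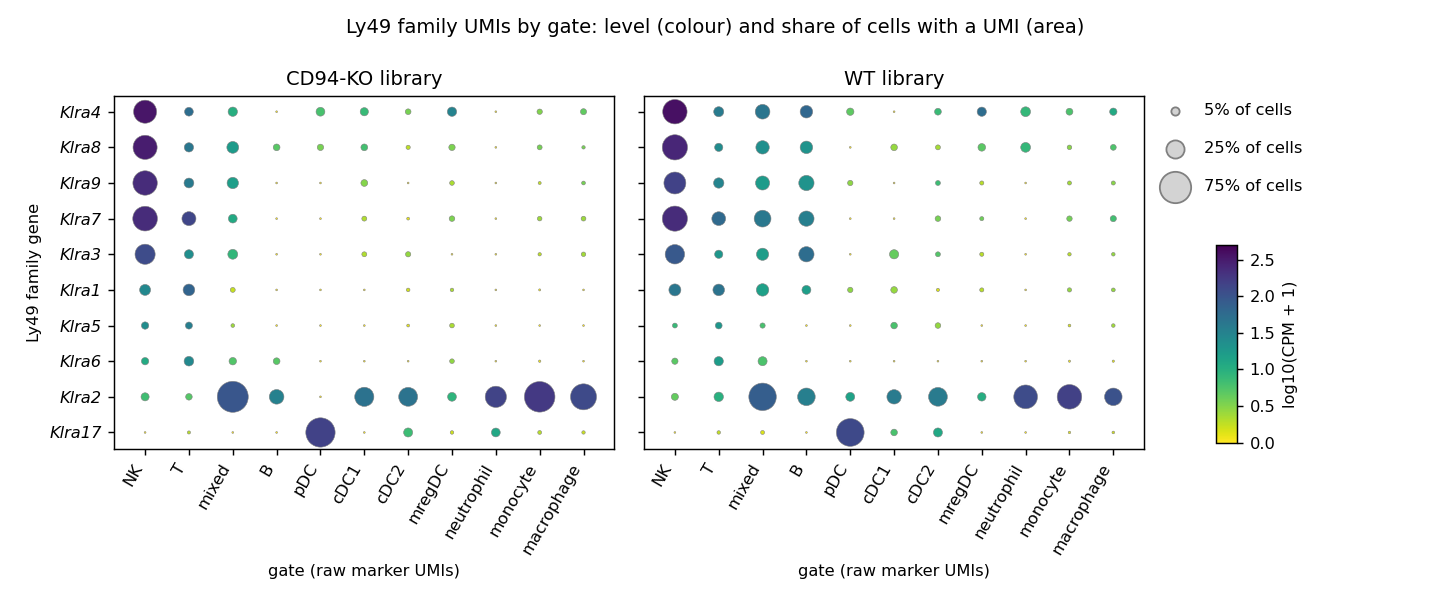
Ly49 members (rows) by gate (columns), with CD94-KO in the left panel and WT in the right; dot area is the share of cells with at least 1 UMI and colour the level as log10(CPM + 1). The NK-type members fill the NK and T columns, Klra2 the monocyte, macrophage and neutrophil columns, and Klra17 the pDC column; the 17 B-gated and 215 mixed WT cells also hold NK-type members.

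The activating gene Klra4 had the highest level of the family in NK-gated cells of both libraries. It had 1034 UMIs in CD94-KO against 994 in WT, or 353 CPM (331 to 375) in CD94-KO against 384 CPM (361 to 409) in WT. Klra8 had 301 CPM (282 to 322) in CD94-KO against 259 CPM (239 to 279) in WT. These levels compare 3′ UMIs of different genes, which are not divided by length because each transcript gives 1 tag. The inhibitory members Klra9 and Klra7 came next. Klra9 stood at 231 CPM (214 to 250) in CD94-KO against 148 CPM (133 to 163) in WT, and Klra7 at 230 CPM in CD94-KO against 233 CPM (215 to 253) in WT. In CD94-KO these 2 genes could not be ordered within counting error, whereas in WT Klra7 stood above Klra9 and overlapped Klra8. Klra3 came next at 119 CPM in CD94-KO against 89.7 CPM in WT. Klra1, a long-studied inhibitory member, was at 26.3 CPM in CD94-KO against 42.9 CPM in WT. Klra5 (23.2 CPM in CD94-KO, 6.57 CPM in WT) and Klra6 (10.6 CPM in CD94-KO, 3.87 CPM in WT) were rare. Klra5 UMIs came from 13 CD94-KO and 4 WT cells. Klra17 had 0 UMIs in both libraries, which allows up to 1.02 CPM in CD94-KO against 1.16 CPM in WT.

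Summed over the 10 members, NK-gated cells held 1300 Ly49 CPM in CD94-KO against 1170 CPM in WT, a ratio of 1.11 (1.06 to 1.17). Klra9 differed most among the abundant members, at 1.57 times WT (1.38 to 1.78). After thinning, Klra9 was found in 20.4% of CD94-KO against 11.6% of WT NK-gated cells, and averaged over all possible draws in 19.0% in CD94-KO against 13.6% in WT. Klra3 stood at 1.32 times WT (1.12 to 1.57) and Klra8 at 1.17 times (1.05 to 1.29). The ratio of Klra4 was 0.92 (0.84 to 1.0) and that of Klra7 was 0.98 (0.88 to 1.10), both intervals reaching 1. Klra1 was the one lower member, at 0.61 times WT (0.45 to 0.83), with 30 of 334 CD94-KO cells and 27 of 251 WT cells carrying it. Klra5 stood at 3.53 times WT (2.05 to 6.40), a value set by few cells, and Klra6 at 2.73 times (1.31 to 6.25). The Klra5 log2 ratio of 1.82 was 0.87 to 1.01 under 3 other ways of gating, as given in the closing section.

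Of the 9 members with at least 20 UMIs in this gate, 4 were at least 1.5-fold higher in CD94-KO (Klra2, Klra5, Klra6 and Klra9), beside 11.2% of all 9042 genes. A single one of the 9, Klra1, was at least 1.5-fold lower, beside 4.36% of all genes. The median log2 ratio of the members was 0.35 and that of all genes 0.09. The background moved with the scaling: with TMM factors 8.12% of all genes were higher and 6.23% lower, and 3 members were higher, Klra9 falling below 1.5-fold at a log2 ratio of 0.55. With a mean of per-cell CPM the log2 ratio was 0.54 for Klra9, 0.10 for Klra2 and -0.36 for Klra1, all 3 within 1.5-fold. Klra2 contributed only 17 UMIs in CD94-KO against 9 in WT here, with a ratio of 1.67 (0.70 to 4.24), and its direction turned when cells with myeloid UMIs were let into the gate. At the 3′ end, where these libraries are counted, 10.7% of 90-base windows of Klra9 also match other family genes, among them Klra3 and Klra8. For Klra7, Klra3 and Klra8 these shares were 5.14%, 4.49% and 3.33%, and for the other members 0. Reads from such windows cannot be assigned to 1 member, and their part in the Klra9 difference was not tested.

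**Figure D2:**
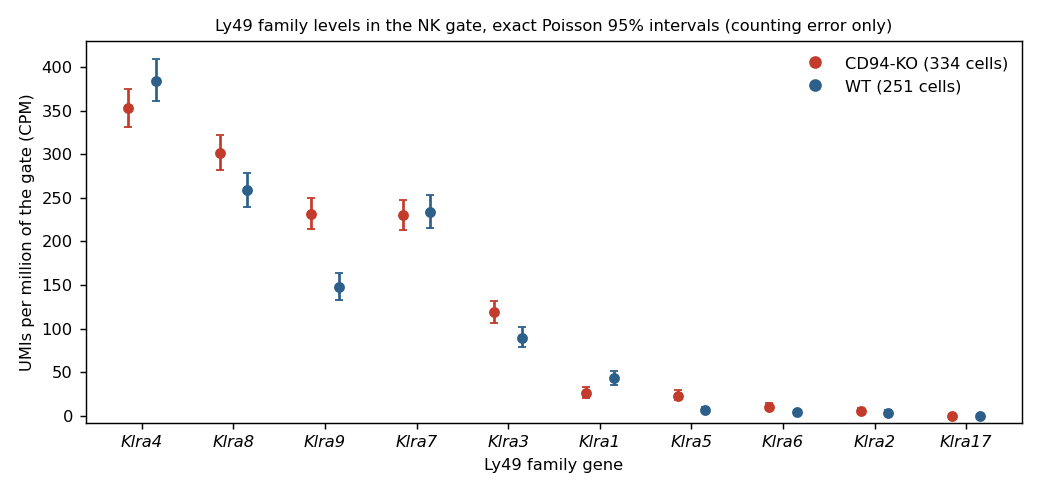
Level of each of the 10 members (x axis) in NK-gated cells (CPM, y axis) in CD94-KO and WT; points are library values and bars are exact 95% Poisson intervals that cover counting error only. Klra4, Klra8, Klra9 and Klra7 lie above 100 CPM in both libraries. Klra9, Klra8, Klra3 and Klra5 are among the members separated between the libraries with CD94-KO higher, and Klra1 is separated with CD94-KO lower.

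Of 12 adaptor, kinase and phosphatase genes that work with the receptors, 0 were 1.5-fold apart in either direction, beside 11.2% of all genes higher and 4.36% lower. Tyrobp was at 2083 CPM in CD94-KO against 1866 CPM in WT, Hcst, the DAP10 adaptor, at 479 CPM in CD94-KO against 435 CPM in WT, and Ptpn6 at 80.8 CPM in CD94-KO against 76.5 CPM in WT. The widest ratio of the list was that of the kinase gene Syk, at 1.47 (1.11 to 1.97). Intervals also lay above 1 for Ptpn11, Lyn, Fyn, Inpp5d, Tyrobp and Hcst, at 1.39, 1.30, 1.29, 1.23, 1.12 and 1.10. They lay below 1 for Lck and Fcer1g, at 0.83 and 0.94. The ligand genes H2-K1 (2279 CPM in CD94-KO, 2507 CPM in WT) and H2-D1 (2301 CPM in CD94-KO, 2448 CPM in WT) and the light chain gene B2m were all within 1.5-fold. Among 14 other lectin receptor genes of the NK complex, Klrd1 alone was past 1.5-fold. Klrc1, which encodes the NKG2A partner of CD94, read 183 CPM in both libraries, and Klrk1, encoding NKG2D, 395 CPM in CD94-KO against 373 CPM in WT.

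Of 15 transcription factor genes with at least 20 UMIs, 2 were past 1.5-fold, both higher in CD94-KO, a share near the 11.2% of all genes. Tbx21, encoding T-bet, stood at 86.9 CPM in CD94-KO against 53.0 CPM in WT, and Eomes at 259 CPM in CD94-KO against 169 CPM in WT, with a ratio of 1.54 (1.36 to 1.73); with TMM factors 1 of the 15 was past 1.5-fold. Tcf7, whose product TCF-1 is needed for Klra1 expression in NK cells, had a ratio of 1.32. Of 10 maturation genes 4 were past 1.5-fold higher, beside 11.2% of all genes (8.12% with TMM factors, where the count was again 4), among them the mast cell protease gene Cma1 (32.7 CPM in CD94-KO, 13.9 CPM in WT). Of 10 genes of the tissue-resident and ILC1 side 4 were lower, beside 4.36% of all genes (6 with TMM factors, beside 6.23%), among them Tmem176a (25.6 CPM in CD94-KO, 41.4 CPM in WT) and Tmem176b (32.4 CPM in CD94-KO, 52.2 CPM in WT).

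Within the gate, Ly49 levels were lower in cells with more UMIs of resident than of maturation genes. NK-gated cells were split by whether UMIs of Itgam, S1pr5, Klrg1 and Cma1 exceeded those of Itga1, Cxcr6, Cd200r1 and Il7r (mature side, 157 CD94-KO and 92 WT cells) or the reverse (resident side, 48 cells in each library), and 129 CD94-KO and 111 WT cells were on neither side. The 8 NK-type members summed to 1460 CPM in CD94-KO against 1377 CPM in WT on the mature side, to 1494 CPM in CD94-KO against 1345 CPM in WT on neither side, and to 695 CPM in CD94-KO against 648 CPM in WT on the resident side. In CPM the resident side alone stood apart, with the other cells as high as the mature side. Resident-side cells were also deeper, with a median of 12510.5 UMIs in CD94-KO against 13100 in WT. The mature side had 6555 in CD94-KO against 6465.5 in WT, and neither side 5714 in CD94-KO against 7854 in WT. CPM is a part of all UMIs, and Ly49 UMIs per cell were not compared between the sides. Klra8 was among the members with a wide gap. It read 382 CPM in CD94-KO against 313 CPM in WT on the mature side, and 93.1 CPM in CD94-KO against 137 CPM in WT on the resident side. Klra6 had 0 UMIs on the resident side in both libraries.

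Cells rich in the granzyme gene Gzmc (at least 5 UMIs; 73 CD94-KO and 79 WT cells) had lower summed levels, 943 CPM in CD94-KO against 810 CPM in WT, than the remaining NK-gated cells, at 1537 CPM in CD94-KO against 1520 CPM in WT. Gzmc-rich cells were also deeper, with a median of 14331 UMIs in CD94-KO against 14431 in WT. The remaining cells had a median of 5681 UMIs in CD94-KO against 6404.5 in WT. CPM is a part of all UMIs, and Ly49 UMIs per cell were not compared between these sets. The lower Klra1 level of CD94-KO lay in the Gzmc-rich cells. Klra1 had 3 UMIs in 1 of 73 CD94-KO cells and 49 UMIs in 9 of 79 WT cells with Gzmc, whereas below 5 Gzmc UMIs it read 42.7 CPM in CD94-KO against 47.7 CPM in WT. Klra9, by contrast, was higher in CD94-KO in both sets, at 206 CPM in CD94-KO against 138 CPM in WT with Gzmc and at 249 CPM in CD94-KO against 158 CPM in WT below 5 Gzmc UMIs. A further set held the cells with at least 3 UMIs of the interferon gene Ifng (84 CD94-KO and 41 WT cells). Klra8 read 365 CPM there in CD94-KO against 205 CPM in WT, or 1.78 times WT (1.38 to 2.32). The whole NK gate gave 1.17 times WT (1.05 to 1.29) for Klra8. No other member is given for this set, and whether the Klra8 ratio depends on Ifng was not tested.

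Most NK-gated cells carried several members. At least 1 member was found in 299 of 334 CD94-KO cells (89.5%) and 216 of 251 WT cells (86.1%), and after thinning in 65.6% of CD94-KO against 57.8% of WT cells. Averaged over all possible draws the thinned share was 64.9% in CD94-KO against 61.02% in WT. With no doublet removal the single draw turned the order, at 60.1% in CD94-KO against 62.5% in WT, while the average over draws was 63.8% in CD94-KO against 60.6% in WT. The mean number of members per cell was 2.29 in CD94-KO against 2.26 in WT, and the most was 6 in each. The commonest number was 3, in 33.2% of CD94-KO against 29.5% of WT cells. A cell with no member UMI made up 10.5% of CD94-KO against 13.9% of WT cells. An activating and an inhibitory member were both found in 189 of 334 CD94-KO cells and 142 of 251 WT cells, 56.6% in each. Inhibitory members without an activating one were seen in 26.3% of CD94-KO against 22.3% of WT cells, and activating members alone in 5.99% of CD94-KO against 7.17% of WT cells. A member that is expressed but not sampled counts as absent here, so these shares depend on depth: after thinning, activating members alone were seen in 18.9% of CD94-KO against 19.5% of WT cells.

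**Figure D3:**
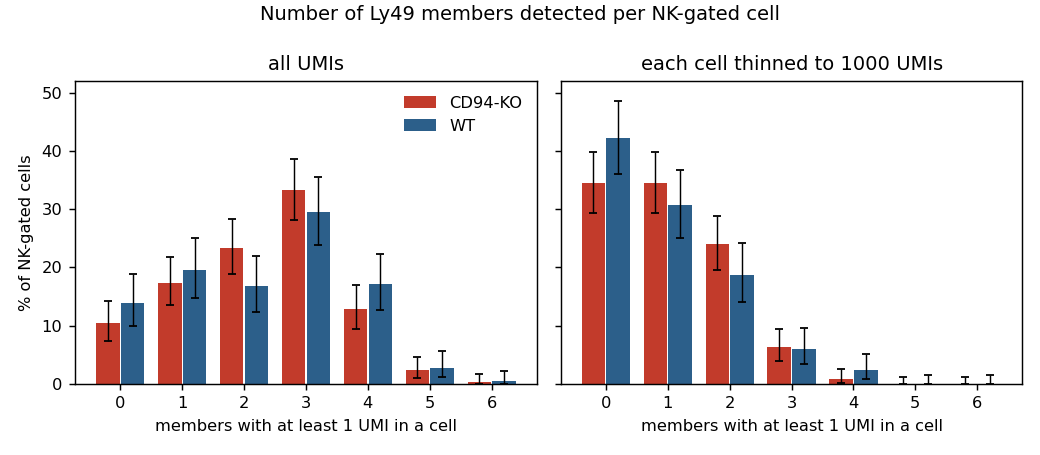
Percent of NK-gated cells (y axis) by the number of Ly49 members with at least 1 UMI (x axis), CD94-KO and WT, with all UMIs (left) and after thinning to 1000 UMIs (right); lines are exact 95% binomial intervals. Unthinned cells peak at 3 members in both libraries, and thinned cells at 0 or 1.

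Pairs of members were compared at 1000 UMIs per cell in 1 draw, as a description. Klra4 was commoner in cells with Klra8 than in cells without it. Klra4 was present in 35.8% of CD94-KO cells with Klra8 (29 of 81) and 20.6% without it, and in 42.4% of WT cells with Klra8 (25 of 59) and 19.3% without it. The interval with Klra8 was 25.4% to 47.2% in CD94-KO against 29.6% to 55.9% in WT. Klra1 and Klra9 showed the opposite. Klra9 was present in 0 of 11 CD94-KO cells with Klra1 and 21.1% without it, and in 1 of 12 WT cells with Klra1 and 11.7% without it. In unthinned cells, where more Klra1 cells are seen, Klra9 was present in 23.3% of CD94-KO cells with Klra1 (7 of 30; 9.9% to 42.3%) and 47.7% without it, and in 22.2% of WT cells with Klra1 (6 of 27; 8.6% to 42.3%) and 38.4% without it. Of 10 pairs with at least 20 positive cells for each member in both libraries at this thinned depth, 6 in CD94-KO against 7 in WT had a member that was commoner in cells with its partner than in cells without it, 4 of them in both. Of 15 such pairs in unthinned cells the counts were 12 in CD94-KO against 9 in WT, 8 of them in both, so the order of the libraries depended on depth.

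Part of the T-gated cells carried Ly49. At least 1 of the 8 NK-type members was found in 104 of 392 CD94-KO cells (26.5%; 22.2% to 31.2%) and 126 of 426 WT cells (29.6%; 25.3% to 34.2%). Among monocyte- and macrophage-gated cells, which should lack these members, the shares were 5.80% in CD94-KO (median 9720 UMIs) and 10.6% in WT (median 2561 UMIs). The carriers lay mostly among T-gated cells assigned to no helper, killer, regulatory or IL-17 subset, in which Cd4 and Cd8b1 were both at 0 except for 1 CD94-KO and 6 WT cells with both. In this remainder 83 of 142 CD94-KO cells (58.5%) and 91 of 157 WT cells (58.0%) had Ly49 UMIs, 79.8% of all T-gated carriers in CD94-KO against 72.2% in WT. After thinning the remainder still stood at 36.6% in CD94-KO against 32.7% in WT, beside 1.01% of CD94-KO against 2.12% of WT monocyte- and macrophage-gated cells.

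The named subsets were lower. CD8 cells had Ly49 UMIs in 10 of 47 CD94-KO cells (21.3%) and 9 of 64 WT cells (14.1%), and CD4 cells in 6 of 53 CD94-KO cells (11.3%) and 7 of 69 WT cells (10.1%). Cells with Foxp3, the regulatory T cell factor, had them in 2 of 33 CD94-KO cells and 12 of 70 WT cells. Cells with Il17a or Cd163l1, marks of IL-17-producing γδ T cells, had them in 3 of 117 CD94-KO cells (2.56%) and 7 of 66 WT cells (10.6%). In WT the intervals of all 4 shares include the 10.6% found in myeloid-gated cells, and in CD94-KO those of the CD4, Foxp3 and IL-17 cells include the 5.80% found there, so these were not separated from background. The CD8 share in CD94-KO (10.7% to 35.7%) lay above it. After thinning, the shares of these 4 subsets were at most 6.38% in CD94-KO against 6.25% in WT.

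An NK marker UMI separated carriers further. Of T-gated cells with a UMI of Ncr1 or Klrb1c, 63 of 76 in CD94-KO (82.9%) and 50 of 65 in WT (76.9%) had Ly49, against 41 of 316 CD94-KO cells (13.0%) and 76 of 361 WT cells (21.1%) without one. After thinning the shares were 51.3% in CD94-KO against 44.6% in WT with the marker, and 6.33% in CD94-KO against 8.15% in WT without it. In the subset-free remainder, Fcer1g, an adaptor chain of innate lymphocytes and myeloid cells, was found in 97.6% of CD94-KO against 87.9% of WT carriers, but in 49.2% of CD94-KO against 47.0% of WT cells with no Ly49 UMI. Median depth was 9099 UMIs in CD94-KO against 7702 in WT carriers, and 4625 in CD94-KO against 5515.5 in WT non-carriers. In CPM, which does not rise with depth, all T-gated carriers read 1102 Fcer1g CPM in CD94-KO against 901 in WT, and the other T-gated cells 232 CPM in CD94-KO against 310 in WT. Tyrobp followed the same pattern, at 1056 CPM in CD94-KO against 820 in WT carriers, and 282 CPM in CD94-KO against 303 in WT non-carriers. Of 5 conventional T cell markers that the gate did not use (Lck, Cd5, Cd6, Cd28 and Icos), 3 in CD94-KO against 4 in WT were lower in carriers with intervals apart. The exceptions were Lck in both libraries and Cd28 in CD94-KO, and Lck read 156 CPM in CD94-KO against 161 CPM in WT carriers, and 135 CPM in CD94-KO against 194 CPM in WT non-carriers. Cd5, a brake on T cell receptor signals, read 34.2 CPM in CD94-KO against 38.7 CPM in WT carriers, and 66.8 CPM in CD94-KO against 111 CPM in WT non-carriers. Lyz2, a myeloid gene, was also lower in carriers, at 196 CPM in CD94-KO against 274 CPM in WT, than in non-carriers, at 264 CPM in CD94-KO against 420 CPM in WT. Carriers differed among themselves by the NK marker. With a UMI of Ncr1 or Klrb1c (63 CD94-KO and 50 WT cells) they read 1487 Fcer1g CPM in CD94-KO against 1636 in WT, near the 1855 CPM in CD94-KO against 1965 in WT of NK-gated cells, and Cd5 stood at 12.7 CPM in CD94-KO against 12.0 in WT. Carriers without the marker read 460 Fcer1g CPM in CD94-KO against 406 in WT and 69.9 Cd5 CPM in CD94-KO against 56.8 in WT. Their Cd5 level was thus below that of non-carriers in WT but not in CD94-KO. Of the 5 T cell markers, 1 in CD94-KO (Icos) against all 5 in WT were lower in these carriers with intervals apart. At least 2 members were found in 70 of 104 CD94-KO carriers (67.3%) and 72 of 126 WT carriers (57.1%), and a single Ly49 UMI in 13 CD94-KO against 34 WT carriers. Rows for T cell receptor constant genes were not used here, so αβ and γδ cells among the carriers could not be told apart. Carriers with the NK marker read 468 Cd3d CPM in CD94-KO against 441 in WT, and non-carriers 873 in CD94-KO against 904 in WT. Eomes stood at 142 CPM in CD94-KO against 85.8 in WT in those carriers, and at 8.76 in CD94-KO against 13.8 in WT in non-carriers. Whether the carriers are T cells, NK cells or doublets of both was not tested.

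**Figure D4:**
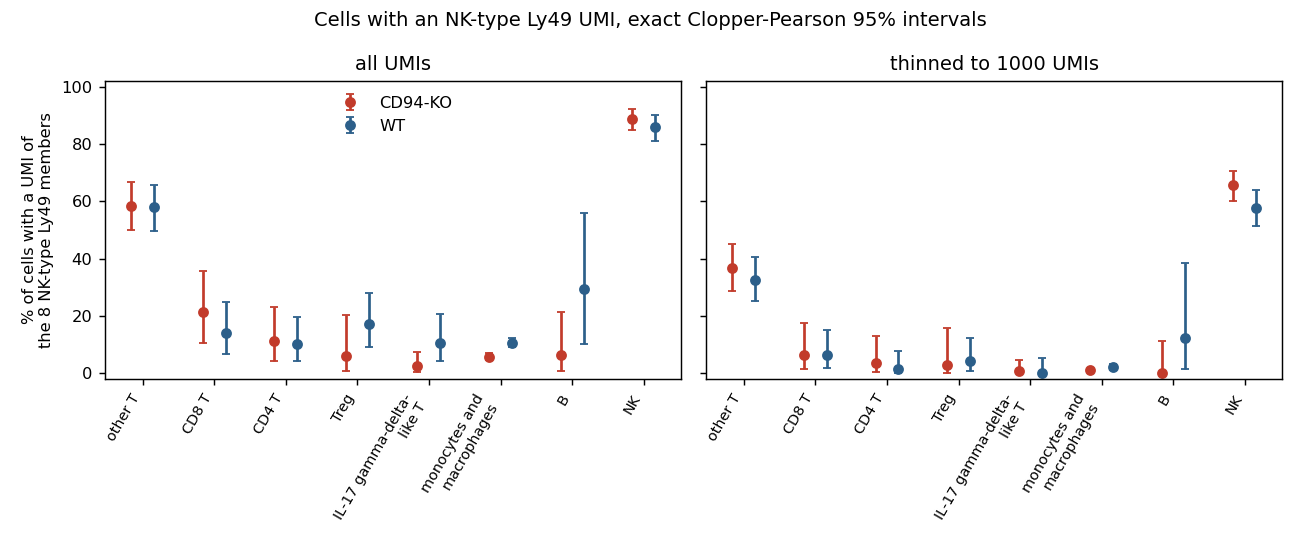
Percent of cells with at least 1 UMI of an NK-type Ly49 member (y axis) in each subset of the T gate and in comparison cells, CD94-KO and WT, for all UMIs (left) and after thinning to 1000 UMIs (right); bars are exact 95% binomial intervals that cover counting error only. The subset-free remainder (other T) stands at 58.5% in CD94-KO against 58.0% in WT, above every named subset.

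The Ly49 repertoire of T-gated cells differed from that of NK-gated cells. Klra7 and Klra1 led in T-gated cells, with 32.0% of the family UMIs in CD94-KO against 23.7% in WT for Klra7 and 16.2% in CD94-KO against 18.5% in WT for Klra1. In NK-gated cells Klra1 made up 2.03% in CD94-KO against 3.68% in WT. Klra1 read 68.4 CPM in CD94-KO against 45.7 CPM in WT T-gated cells, so its level in T-gated cells lay above that in NK-gated cells in CD94-KO but within counting error of it in WT. Klra5 stood at 34.7 CPM in CD94-KO against 18.1 CPM in WT, in 14 cells of each library, and Klra6 at 25.9 CPM in CD94-KO against 15.6 CPM in WT, in 27 cells of each. T-gated cells held 64.5% of all Klra1 UMIs in CD94-KO against 41.4% in WT, and for Klra5 the shares were 56.3% in CD94-KO against 53.7% in WT. The activating genes Klra4 (55.1 CPM in CD94-KO, 37.4 CPM in WT) and Klra8 (41.2 CPM in CD94-KO, 24.1 CPM in WT) took a smaller part here than in NK-gated cells. The 14 Klra5 cells of the T gate were rich in Gzmc, with 6021 CPM in CD94-KO against 12989 CPM in WT, as were NK-gated cells with Klra5, with 14971 CPM in CD94-KO against 21574 CPM in WT.

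In T-gated cells the 8 members summed to 421 CPM in CD94-KO against 247 CPM in WT, a ratio of 1.70 (1.57 to 1.85). Klra7 stood at 135 CPM in CD94-KO against 58.5 CPM in WT, a ratio of 2.30 (1.96 to 2.72). The share of T-gated cells with a Klra7 UMI was 14.8% in CD94-KO against 14.3% in WT, so the gap lay in UMIs per positive cell. A single CD94-KO cell held 42 of the 416 UMIs there, and the highest WT cell 19 of 233, and the 10 highest cells held 45.9% in CD94-KO against 45.1% in WT. Of 9 members with at least 20 UMIs, 4 were at least 1.5-fold higher in CD94-KO (Klra5, Klra6, Klra7 and Klra8), beside 8.06% of all 9999 genes. Klra2 alone was at least 1.5-fold lower (4.21 CPM in CD94-KO, 8.79 CPM in WT), beside 7.25% of all genes. The median log2 ratio of the members was 0.53 and that of all genes 0.03. The make-up of the gate moved with these values. Cells with an NK marker UMI were 76 of 392 in CD94-KO against 65 of 426 in WT, and within them the summed ratio was 1.20 (1.08 to 1.32), with 1.31 (1.11 to 1.55) in the remaining T-gated cells. For Klra1 the ratio of 1.5 over the whole gate became 1.07 with an NK marker UMI and 1.09 without one. Klra7 kept 1.75 (1.43 to 2.13) with the marker and 1.48 (1.08 to 2.03) without it. In CD8 cells Klra7 read 42.5 CPM in CD94-KO against 1.29 CPM in WT, where only 10 of 47 CD94-KO and 9 of 64 WT cells carried any member. These levels rest on 21 UMIs in CD94-KO against 1 in WT, too few to give the size of the gap.

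Klra2 was the myeloid member. Monocyte-gated cells held 177 CPM (169 to 185) in CD94-KO against 149 CPM (140 to 159) in WT. Neutrophil-gated cells had 143 CPM (92.7 to 212) in CD94-KO against 119 CPM (69.2 to 190) in WT, from 35 CD94-KO and 14 WT cells, and could not be ordered against monocytes. Macrophage-gated cells came below monocytes at 122 CPM (112 to 132) in CD94-KO against 104 CPM (93.3 to 115) in WT. Dendritic cells were lower again. cDC1-gated cells read 46.8 CPM in CD94-KO against 38.0 CPM in WT, cDC2-gated cells 45.9 CPM in CD94-KO against 37.7 CPM in WT, so these could not be ordered, and mregDC, the Ccr7-bearing mature form, 7.79 CPM in CD94-KO against 9.66 CPM in WT. NK-gated cells stood at 5.80 CPM in CD94-KO against 3.48 CPM in WT.

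A Klra2 UMI was seen in 71.4% of CD94-KO against 45.9% of WT monocyte-gated cells, whose median depths were 9952 UMIs in CD94-KO against 7099 in WT. After thinning the shares were 16.1% in CD94-KO against 13.0% in WT. Over monocyte- and macrophage-gated cells together the level was 161 CPM in CD94-KO against 133 CPM in WT, a ratio of 1.21 (1.13 to 1.30). Klra2 ran with the monocyte side of these cells. Cells with at least 3 UMIs of Ly6c2, an inflammatory monocyte gene, read 180 CPM in CD94-KO against 156 CPM in WT, and cells with 0 read 113 CPM in CD94-KO against 93.7 CPM in WT. With at least 3 UMIs of Trem2, a gene of lipid-handling macrophages, the level was 125 CPM in CD94-KO against 99.3 CPM in WT, and it was 186 CPM in CD94-KO against 144 CPM in WT at 0. The mannose receptor gene Mrc1 gave the same order, with 112 CPM in CD94-KO against 90.1 CPM in WT at 3 or more UMIs and 175 CPM in CD94-KO against 138 CPM in WT at 0. Cells with the interferon-induced chemokine gene Cxcl9 were higher, at 181 CPM in CD94-KO against 150 CPM in WT, than cells without it, at 145 CPM in CD94-KO against 126 CPM in WT. In each of these sets CD94-KO stood above WT, but the sets overlap and come from the same libraries, so they repeat the ratio of 1.21. WT cells in the sets at 0 UMIs were shallow. Their median was 764 UMIs for Ly6c2, 847 for Trem2, 1015.5 for Mrc1 and 961 for Cxcl9, beside 6948, 7987, 9421 and 9077 in CD94-KO.

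NK-type members in the same monocyte- and macrophage-gated cells summed to only 9.34 CPM in CD94-KO against 19.1 CPM in WT. Of those UMIs Klra4 made up 28.4% in CD94-KO against 36.0% in WT, beside 27.2% in CD94-KO against 32.9% in WT in NK-gated cells. In WT, Klra1 made up 8.99% (5.33% to 14.0%) beside 3.68% in NK-gated cells, and Klra5 4.23% (1.84% to 8.17%) beside 0.56%, so the make-up of WT differed from that of NK-gated cells for these. The part of free RNA here was not tested.

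Klra17 marked pDC. It had 57 UMIs in 23 of 35 CD94-KO pDC-gated cells (65.7%) and 68 UMIs in 30 of 51 WT cells (58.8%). The level was 145 CPM (110 to 188) in CD94-KO against 126 CPM (97.6 to 159) in WT, a ratio of 1.16 (0.80 to 1.67), so no difference was detectable at this depth. cDC2-gated cells came next with 5.98 CPM in CD94-KO against 11.1 CPM in WT. There 16 CD94-KO and 11 WT cells carried it, of which 2 in CD94-KO against 1 in WT also had a UMI of the pDC gene Siglech. Neutrophil-gated cells had 11.5 CPM in CD94-KO, from 2 cells, and 0 in WT. Beyond the pDC gate no gate exceeded these levels, yet pDC-gated cells held only 34.8% of all Klra17-bearing cells in CD94-KO against 55.6% in WT, the rest being scattered. Klra2 had 0 UMIs in CD94-KO pDC-gated cells and 12.9 CPM in WT ones. Of the pDC-gated Klra17 carriers, 0 in CD94-KO against 1 in WT had a Klra2 UMI, whereas 6 of 16 CD94-KO and 3 of 11 WT carriers in the cDC2 gate did.

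Klra4 was the one NK-type member with a second site, in ungated cells rich in collagen RNA. Ungated cells as a whole held 39.5% of the Klra4 counts in CD94-KO against 48.9% in WT. Other members also had ungated counts, with Klra8 at 28.8% in CD94-KO against 28.2% in WT. The collagen-rich set (44 CD94-KO and 96 WT cells) accounted for 13.6% of all Klra4 counts in CD94-KO against 30.0% in WT. It required at least 20 UMIs of Col1a1, Col3a1 and Sparc together, and more of them than of Ptprc. The set was defined after its values were seen. In these cells Klra4 read 137 CPM (122 to 153) in CD94-KO against 159 CPM (148 to 170) in WT, and was found in 79.5% of CD94-KO against 93.8% of WT cells. A single cell held between 0 and 35 Klra4 UMIs in CD94-KO (median 4) and between 0 and 36 in WT (median 7). The other 7 NK-type members together had 0 UMIs there in CD94-KO against 17 in WT, beside 301 Klra4 UMIs in CD94-KO against 879 in WT. The 5 NK check markers summed to 16.8 CPM in CD94-KO against 10.8 CPM in WT, beside 7075 CPM in CD94-KO against 5871 CPM in WT NK-gated cells. Ptprc, which encodes CD45, had a median of 0 UMIs per cell in both libraries, although the sort was for CD45+ cells, and median depth was 42509.5 UMIs in CD94-KO against 52754 in WT. Tyrobp, the adaptor that Ly49D needs at the surface, was at 19.6 CPM in CD94-KO against 25.6 CPM in WT.

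mregDC-gated cells also showed Klra4, at 30.0 CPM in CD94-KO against 55.1 CPM in WT. These UMIs came from 9 of the 140 CD94-KO and 6 of the 95 WT mregDC-gated cells. The 3 fibroblast markers summed to 687 CPM in CD94-KO against 179 CPM in WT in this gate. Without cells of at least 3 collagen UMIs, Klra4 read 1.68 CPM in CD94-KO against 8.22 CPM in WT mregDC-gated cells.

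**Figure D5:**
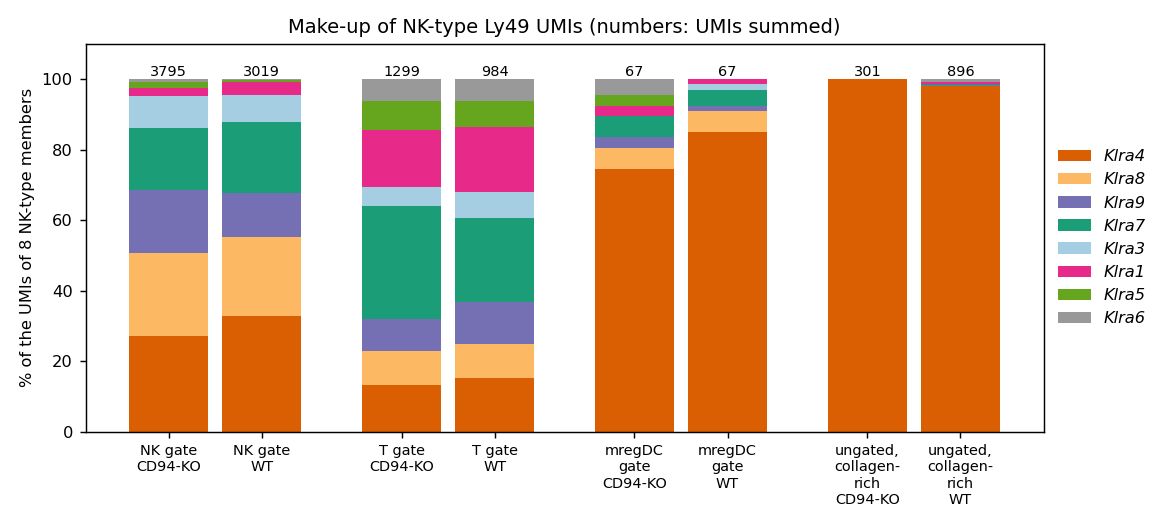
Make-up of the UMIs of the 8 NK-type members (percent, stacked to 100) in NK-gated, T-gated, mregDC-gated and collagen-rich ungated cells, CD94-KO left of WT, with the summed UMIs above each bar. Klra7 and Klra1 widen in the T gate, and Klra4 fills nearly the whole bar in collagen-rich cells, with 100% in CD94-KO against 98.1% in WT.

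Each member was last set beside the genes whose levels over 18 profiles (9 gates in 2 libraries) were most like its own, by Pearson correlation of log2(CPM + 5) as a description. The gates share their libraries, so these values rank genes and nothing more. Klra1 was most like Cd160 (r = 0.97), a receptor of intraepithelial-type lymphocytes and NK cells, and Klra7 most like Klrc2 (0.99), encoding the NKG2C chain. Klra8 was most like Eomes (0.99), and Klra5 most like Serpine2 (0.96), a serine protease inhibitor gene. Klra4 was most like Rab27b (0.98) and Klra6 most like Pitpnm2 (0.97). Klra3 and Klra9 were most like Ncr1 (0.99) and Klrb1c (0.99), which the NK gate itself used. Klra2 was most like Olr1 (0.97), a scavenger receptor gene of myeloid cells, and Klra17 most like Cd300c (0.99). Between members, Klra8 and Klra9 reached 0.98, as did Klra3 and Klra9, and Klra5 with Klra6 reached 0.93. Klra1 was nearest to Klra7 (0.93).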

How the data were processed

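Gene by cell UMI counts of 2 libraries were used as deposited. Per the labels' protocols, libraries were Chromium 3′ v2 and filtered of non-cell barcodes. The file headers name Cell Ranger 5.0.0, and the submitters' processing notes name Seurat 4.0 and mm10. Barcodes below 500 UMIs or 300 genes, or with 10% or more mitochondrial UMIs, were dropped. Scrublet's automatic threshold called 0 CD94-KO and 1 WT doublets, so the top 4% by score were removed (191 CD94-KO and 183 WT cells). Gates, checked in order, used raw marker UMIs; cells with NK or T markers and at least 0.2% myeloid UMIs were set aside as mixed. CPM has exact Poisson intervals, shares have Clopper-Pearson intervals, and ratios have exact conditional binomial intervals. Genes needed 20 UMIs over both libraries for a ratio call at 1.5-fold. The floor for a count of 0 was 3 counts per library. Code was checked on simulated counts. Members and gene lists were chosen with earlier results of these data known. Pathway genes are named where at least 1.5-fold apart with 100 UMIs or more, beside a short preset set. For each member the 3 most alike genes were computed and the first is given. A planned comparison of protein tails was not done. Kept depth was 42210515 UMIs in CD94-KO against 36482364 in WT. Python 3.11.15, scanpy 1.11.5, scipy 1.17.1, biopython 1.88 and edgeR 4.0.16 (TMM scaling, an alternative) were used. Other gates, filters, thinning depths and doublet settings were tried.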

Additional observations from a re-analysis of the deposited data

Results flagged for a closer look

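Klra1 moved in opposite directions in the 2 lymphocyte gates. Its CD94-KO over WT ratio was 0.612 (0.45 to 0.83) in NK-gated cells and 1.5 (1.22 to 1.83) in T-gated cells. The difference between the gates was not tested. Within the T gate the ratio was 1.07 in cells with an NK marker UMI and 1.09 in cells without one.

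Klra4 RNA appeared in collagen-rich ungated cells that belong to none of the comparisons between gates, at 137 CPM in CD94-KO against 159 CPM in WT. Summed NK check markers in those cells were 16.8 CPM in CD94-KO against 10.8 CPM in WT, and the labels put the purity of the CD45+ sort above 90%.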

How the results depend on the processing

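Of 131 values recomputed under other settings, 1 that had passed 1.5-fold changed direction and 40 moved by more than their counting interval or, for counts of genes, by more than 1.5 times. Of 54 member ratios in NK-gated cells, 48 stayed within that range; a minimum of 1000 UMIs per cell is not counted, since every NK-gated cell met it. The one reversed was Klra2 in NK-gated cells, whose log2 ratio of 0.74 was -0.47 with no limit on myeloid UMIs. Klra4, whose main log2 ratio was -0.12, read 0.07 with at least 3 NK marker UMIs and no CD3 UMI, and Klra7, at -0.02, took either sign near 0. The settings on collagen-rich cells, NK markers inside the T gate and expected shares were chosen after seeing the data. No paired analysis was possible because each group has 1 library, and leaving out a replicate was not possible for the same reason.

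The summed NK log2 ratio of 0.15 was 0.0532 with TMM scaling and 0.25 with at least 3 NK marker UMIs and no CD3 UMI. The Klra5 log2 ratio of 1.82 lay between 0.87 and 1.01 under 3 settings. Genes 1.5-fold higher numbered 1014, against 320 of 5133 with at least 100 UMIs and 3005 of 13706 with 1; genes lower numbered 394, against 63 and 1880. With TMM factors 734 were higher and 563 lower, which put 56.6% of calls on the higher side against 72.0%. The thinned NK share was 65.6% in CD94-KO against 57.8% in WT at 1000 UMIs, 45.5% in CD94-KO against 39.4% in WT at 500, 81.8% in CD94-KO against 74.4% in WT at 2000, 89.5% in CD94-KO against 86.1% in WT unthinned, and 60.1% in CD94-KO against 62.5% in WT with no doublet removal, where the order turned. Members per thinned cell, 1.05 in CD94-KO against 0.956 in WT, became 0.596 in CD94-KO against 0.474 in WT at 500, 1.57 in CD94-KO against 1.44 in WT at 2000, 2.29 in CD94-KO against 2.26 in WT unthinned, and 0.957 in CD94-KO against 0.935 in WT with no doublet removal. The T-gated share became 13.0% in CD94-KO against 21.1% in WT without NK marker cells, and 15.1% in CD94-KO against 13.8% in WT thinned. The T-gated log2 ratio of 0.77 was 0.26 with an NK marker UMI and 0.39 without one. With at least 1% myeloid UMIs, Klra2 in CD94-KO read 167 CPM in monocytes and 136 in macrophages. Klra4 in mregDC was 1.68 CPM in CD94-KO against 8.22 in WT below 3 collagen UMIs. Klra4 in CD94-KO collagen-rich cells was 108 CPM at 50 collagen UMIs. The cause of these shifts was not tested.

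Depth limits rare members most: Klra5 in NK-gated cells rests on 68 UMIs in CD94-KO against 17 in WT, and Klra17 in pDC on 57 in CD94-KO against 68 in WT. A WT macrophage gate with a median of 813.5 UMIs limits shares of cells there.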

Other observations

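Ungated cells with at least 3 UMIs of NK check markers (320 CD94-KO and 242 WT cells) held a summed Ly49 level of 673 CPM in CD94-KO against 814 CPM in WT, the reverse order of the NK gate. Klra7 read 84.2 CPM in CD94-KO against 150 CPM in WT in these cells, Klra4 238 CPM in CD94-KO against 282 CPM in WT, and Klra9 98.3 CPM in CD94-KO against 101 CPM in WT. The higher Klra9 level of CD94-KO NK-gated cells was thus not seen in these cells, which have at most 1 UMI of Ncr1 and Klrb1c together.

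In NK-gated cells that leaned to neither the mature nor the resident side, Klra9 stood at 297 CPM in CD94-KO against 139 CPM in WT, a ratio of 2.14 (1.74 to 2.64). On the mature side it read 233 CPM in CD94-KO against 190 CPM in WT. The 17 WT B-gated cells held 207 CPM of NK-type members, and the 31 CD94-KO B-gated cells 8.11 CPM. These UMIs lay in 5 WT and 2 CD94-KO cells. NK check markers went the same way in this gate, with Gzma at 12.2 CPM in CD94-KO against 1581 in WT and Klre1 at 12.2 CPM in CD94-KO against 113 in WT. Whether the WT barcodes also hold RNA of NK cells was not tested, so this is no evidence of Ly49 in B cells. Zfp683, a residency factor gene, had 0 UMIs in NK-gated cells of both libraries.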
